A study of Homo sapiens and Mus musculus with 15 samples.

Results

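Cell-cycle and mitosis genes were followed across the human and mouse samples of a study of the retinal pigment epithelium (RPE), the pigmented cell layer behind the retina. The set holds 42 genes chosen by name, 18 that act around S phase and 24 that act in mitosis. All 42 were found among the 61071 genes of the human table and the 56832 genes of the mouse table, and among the 32285 genes of the single-cell matrices. The human samples were ARPE-19 cells, an established RPE cell line, in 3 groups of 3 libraries harvested after 5 days. Control-vector cells grew on plastic or on a soft gel of 1.5 kPa, and cells overexpressing YAP-HA, an HA-tagged form of the transcriptional coactivator YAP, grew on the same gel. The mouse samples were RNA of the eye cup after removal of the retina, from old C57BL/6J mice with TRULI, an inhibitor of LATS kinases, or without it, with 2 libraries in each group. A single-cell library of dissociated RPE was made at 3 months and another at 24 months of age from C57BL/6J mice. The label field for condition reads the same for both single-cell libraries, so their ages were taken from title and age. The dose and duration of TRULI, the exact age of the treated mice and whether the YAP-HA cells were a single clone are not given in the sources used here. Nothing says whether libraries of a group came from separate cultures or animals, so p-values measure only the spread between these libraries.

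A cell that divides copies its DNA in S phase and separates the copies in mitosis. E2F transcription factors switch on the S phase genes, among them the E-type cyclins, the MCM helicase that opens the DNA, the sliding clamp PCNA and the enzymes that make nucleotides. A later wave of genes, driven by the MuvB complexes with B-MYB and FOXM1, holds the mitotic cyclins and their kinase CDK1, the Aurora and Polo kinases, the spindle checkpoint and the kinesin motors. YAP, which LATS kinases restrain, is known to promote growth and division and responds to the stiffness of the substrate. Adult RPE cells in the eye are known to be largely non-dividing, whereas ARPE-19 cells divide in culture.

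Promoters of such genes are known to carry short motifs. The 150 bases just before the annotated start are shown for 3 mitosis members, 2 S phase members and CCNE1, the S phase member that stood apart from the others in the YAP-HA comparison. Sequences are from RefSeq (GRCh38.p14), 5′ to 3′ on the strand of the gene, and capitals mark the cell-cycle homology region (TTTGAA or TTCGAA, bound by MuvB complexes), the CCAAT box (CCAAT) and E2F letters (TTTGGCG, the variant TTTCCCG, the variant TTTCGCG and the variant TTTGCCG), searched on both strands and allowed to overlap.
CCNB2, chr15:59104996-59105145, plus strand: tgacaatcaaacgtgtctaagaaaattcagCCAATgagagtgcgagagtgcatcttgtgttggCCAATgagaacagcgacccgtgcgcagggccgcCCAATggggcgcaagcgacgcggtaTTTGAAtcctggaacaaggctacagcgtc
PLK1, chr16:23678739-23678888, plus strand: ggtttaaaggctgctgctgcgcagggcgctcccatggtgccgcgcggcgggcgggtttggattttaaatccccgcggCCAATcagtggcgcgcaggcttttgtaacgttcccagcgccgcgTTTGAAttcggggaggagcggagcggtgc
MKI67, chr10:128126424-128126573, minus strand: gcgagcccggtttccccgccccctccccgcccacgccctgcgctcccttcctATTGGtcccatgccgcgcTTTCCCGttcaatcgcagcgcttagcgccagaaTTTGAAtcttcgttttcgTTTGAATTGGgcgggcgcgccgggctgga
MCM6, chr2:135876444-135876593, minus strand: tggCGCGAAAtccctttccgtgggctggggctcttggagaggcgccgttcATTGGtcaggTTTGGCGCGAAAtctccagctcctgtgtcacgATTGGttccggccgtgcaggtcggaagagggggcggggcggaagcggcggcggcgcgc
E2F1, chr20:33686386-33686535, minus strand: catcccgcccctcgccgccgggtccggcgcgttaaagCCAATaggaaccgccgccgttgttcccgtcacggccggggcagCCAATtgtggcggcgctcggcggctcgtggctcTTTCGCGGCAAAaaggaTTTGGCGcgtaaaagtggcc
CCNE1, chr19:29811841-29811990, plus strand: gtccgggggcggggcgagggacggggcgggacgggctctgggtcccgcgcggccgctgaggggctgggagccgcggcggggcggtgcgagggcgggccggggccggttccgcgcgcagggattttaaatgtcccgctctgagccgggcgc

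In CCNB2, PLK1 and MKI67 the letters TTTGAA began 29 bases before the start. CCNE1 held none of the letters in its window of 300 bases (250 before the start to 50 after it). CENPE, a kinesin that links chromosomes to the spindle, held none of them either. With YAP-HA on gel CENPE was called higher (0.84, SE 0.13, limma adjusted p = 0.000602) and CCNE1 was not called. The part of the letters in these values was not tested. Of the 42 members, 33 had such a window, and CCNE2, MCM4, MCM5, AURKA, TTK, BIRC5, UBE2C, TPX2 and FOXM1 had none. E2F letters were in 12 of 15 S phase members (80%) and in 4 of 18 mitosis members (22.2%), against 10.4% of 27305 genes with a window. The homology region was in 2 of 15 S phase members (13.3%) and in 13 of 18 mitosis members (72.2%), against 19.5% of all genes. CCAAT was in 73.3% of S phase and 88.9% of mitosis members, against 39.7%. Among the 10276 genes that were tested in ARPE-19 cells and had a window, the shares were 16.8% for E2F letters, 15.3% for the homology region and 43.1% for CCAAT. A match describes letters only and shows no binding.

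ARPE-19 cells expressed all 42 members in every library. On plastic, mean levels ran from 233 TPM for CCNB1, the main mitotic cyclin, and 224 TPM for PCNA down to 9.26 TPM for CCNE1, where TPM is a level relative to all transcripts of a library that corrects for gene length. YAP1 itself was at 115 to 126 TPM on plastic, 55.9 to 77.3 TPM on gel and 2209 to 2469 TPM in YAP-HA cells, so the libraries labelled YAP-HA carried the transcript. Of 9 RPE markers, 4 reached 1 TPM in at least 3 libraries, and RPE65, TTR and RGR were at 0 in all 9. The summed level of these markers was 19.3 to 21.1 TPM on plastic, 9.81 to 10.3 TPM on gel and 12.7 to 15.8 TPM in YAP-HA cells, and its part in the results below was not tested. Of 6 immune markers only CSF1R reached 1 TPM, at 0.38 to 3.7 TPM, and CD3E and C1QA were at 0 in all libraries. Differences below are on the log2(TPM + 1) scale with the standard error of the fit and Benjamini-Hochberg adjusted p from limma over the 14606 genes that passed the filter. In bulk RNA, fewer dividing cells and less RNA per dividing cell cannot be told apart.

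**Figure D1:**
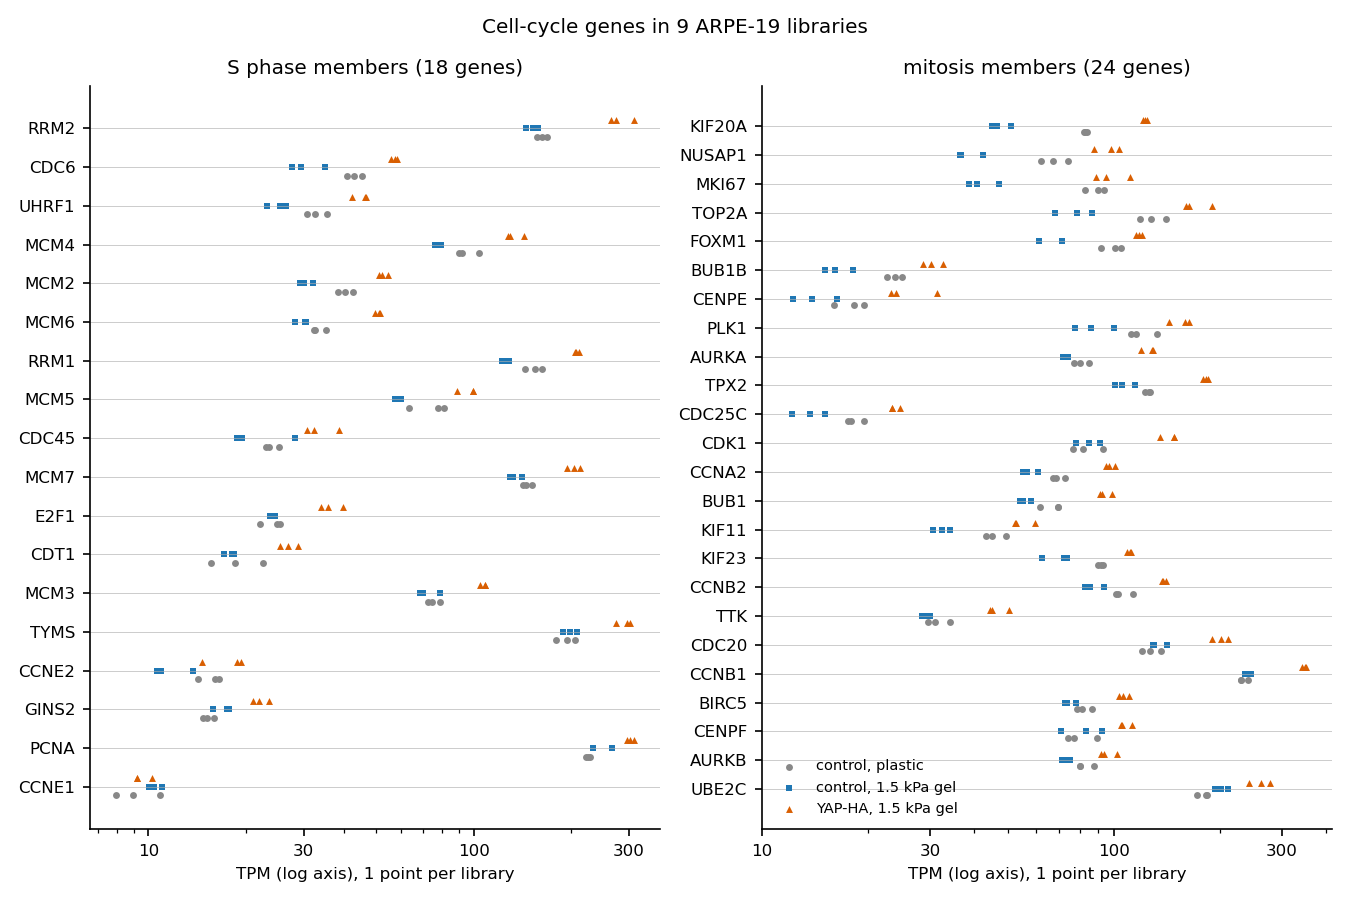
TPM of the 42 members in 9 ARPE-19 libraries, 1 point per library on a log axis, for control cells on plastic (circles), control cells on gel (squares) and YAP-HA cells on gel (triangles). In 39 members the 3 YAP-HA libraries lie above the 6 others, and CCNE1, CCNE2 and MKI67 are the exceptions. The share of all genes with this order was not counted. Of all genes tested, 24.5% were called higher with YAP-HA than in control cells on gel and 14.2% than in control cells on plastic.

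The first comparison set control cells on the gel against control cells on plastic, which asks what a soft substrate does. Of 24 mitosis members 15 were called lower on gel and 1 higher, and the largest difference was in MKI67, the proliferation antigen Ki-67, which coats mitotic chromosomes. Of the 42 members, 22 were called lower and 2 higher at an adjusted p under 0.05, while 27.9% of all genes tested were called lower and 22.6% higher. By role these were 7 of 18 S phase members (CCNE2, CDC6, MCM2, MCM4, MCM5, RRM1 and UHRF1) and 15 of 24 mitosis members lower, and PCNA and UBE2C higher. The median difference was −0.12 for S phase and −0.27 for mitosis members, beside −0.04 over all genes.

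MKI67 was at 82.9, 89.8 and 93.4 TPM on plastic and 47.1, 40.8 and 38.6 TPM on gel. The gel libraries were all lower, by −1.06 (SE 0.10, limma adjusted p = 3.4e-05). TOP2A, the topoisomerase that untangles DNA before chromosomes separate, was at 119, 140.4 and 128 TPM on plastic and 86.7, 68.2 and 78.3 TPM on gel (−0.73, SE 0.10, limma adjusted p = 0.000336). NUSAP1, which binds spindle microtubules, fell from 61.9, 67.2 and 74.1 TPM to 42.4, 36.5 and 36.9 TPM (−0.80, SE 0.09, limma adjusted p = 0.000112). KIF20A, a kinesin of cytokinesis, fell from 83.7, 81.9 and 82.5 TPM to 51.0, 46.6 and 45.0 TPM (−0.79, SE 0.06, limma adjusted p = 9.6e-06). In none of these 4 genes did the groups overlap. FOXM1, a transcription factor of the mitotic wave, fell by 0.61 on this scale (SE 0.07), and BUB1B, a spindle checkpoint protein, by 0.51 (SE 0.08).

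The kinase and the cyclin at the centre of mitotic entry were not called. CDK1 was at 76.4, 93.0 and 81.9 TPM on plastic and 78.1, 85.0 and 91.1 TPM on gel, a difference of 0.02 with a 95% interval from −0.17 to 0.21. CCNB1 was at 229 to 239.7 TPM on plastic and 235 to 244 TPM on gel (0.03, interval −0.07 to 0.14). The groups overlapped in both genes. E2F1, the S phase transcription factor, had a mean of 24.1 TPM on each substrate (0.00, interval −0.17 to 0.18), and CDC20, which activates the ligase that ends mitosis, differed by 0.06 (interval −0.09 to 0.21).

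Among S phase members the helicase subunits MCM2 to MCM7 all had lower means on gel, but not all were called. MCM2, MCM4 and MCM5 were called lower on gel, with means of 40.4, 95.4 and 74.0 TPM on plastic and 30.5, 77.5 and 58.3 TPM on gel. MCM3, MCM6 and MCM7 were not called, with means of 75.3, 33.3 and 146 TPM on plastic and 72.2, 29.7 and 134 TPM on gel. The groups overlapped in MCM3 but not in MCM6 (−0.16, limma adjusted p = 0.0541) or MCM7 (−0.12, limma adjusted p = 0.102). Of the E-type cyclins, which drive entry into S phase, CCNE2 fell by 0.38 (SE 0.13, limma adjusted p = 0.0281) and CCNE1 was not called (0.17, SE 0.11). The members called higher were PCNA, at 228, 221 and 224 TPM on plastic against 233, 267 and 267 TPM on gel (0.18, SE 0.06, limma adjusted p = 0.0274), and UBE2C, the ubiquitin-conjugating enzyme of the mitotic ligase, at 183, 183 and 173 TPM against 193, 211 and 201 TPM (0.17, SE 0.06, limma adjusted p = 0.048). Leaving out plastic replicate 2 or 3 or gel replicate 2 or 3 left 0 members called higher. Leaving out plastic replicate 1 left PCNA alone. CCNE2 was no longer called lower without plastic replicate 2 or 3 or gel replicate 2 or 3.

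Cell-cycle genes outside the set are given beside all genes tested, of which 27.9% were called lower and 22.6% higher. Of 37 other replication genes, 13 were called lower and 6 higher, among them RPA2, a subunit of the single-strand binding protein (0.58), and TK1, a thymidine kinase (−0.47). Of 58 other mitosis genes, 31 were lower and 5 higher, led by ANLN, a scaffold of the cleavage furrow, from 273 to 122 TPM (−1.16), INCENP, a partner of Aurora B (−1.05), and the kinesin KIF14 (−0.98). Of 28 regulators tested, 11 were lower and 4 higher, led by the G1 kinase CDK6 (−1.40), the pocket protein RBL1 (−0.93) and the MuvB subunit LIN54 (−0.91). Among the CDK inhibitors, CDKN1A (p21) was higher, from 219 to 303 TPM (0.47, SE 0.05, limma adjusted p = 0.000128), CDKN1B and CDKN2B were lower (−0.29 and −0.81), CDKN2C (−0.05) and CDKN2D (0.13) were not called, and CDKN1C did not pass the filter.

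**Figure D2:**
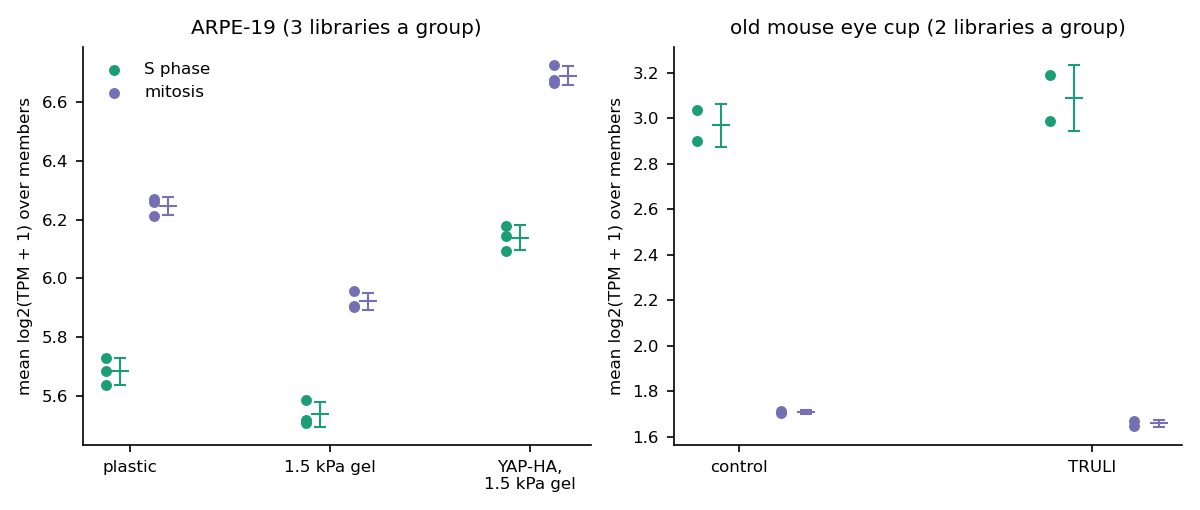
Mean log2(TPM + 1) over the S phase and the mitosis members in each library of ARPE-19 cells (left) and of old mouse eye cups (right), with the group mean and SD beside the points. In ARPE-19 cells the mitosis mean is 6.25 on plastic, 5.92 on gel and 6.69 with YAP-HA, and in the eye cups the mitosis means lie between 1.65 and 1.71.

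The second comparison held the gel constant and asked what YAP-HA does. YAP-HA cells had more of nearly every member, with the largest differences in KIF20A, NUSAP1, MKI67 and TOP2A. Of the 42 members, 41 were called higher, 17 of 18 S phase and 24 of 24 mitosis members, and 0 lower, while 24.5% of all genes tested were called higher and 23.9% lower. The median difference was 0.60 for S phase and 0.75 for mitosis members, beside 0.01 over all genes. Both comparisons on gel use the same control libraries, so their values stand side by side and are not independent.

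KIF20A was at 122, 121 and 124 TPM in YAP-HA cells against 51.0, 46.6 and 45.0 TPM in control cells, the largest difference of the set (1.35, SE 0.06, limma adjusted p = 6.67e-08). NUSAP1 was at 98.1, 87.8 and 103 TPM (1.30, SE 0.09, limma adjusted p = 2.41e-06). MKI67 was at 94.6, 89.1 and 111 TPM (1.20, SE 0.10, limma adjusted p = 6.86e-06) and TOP2A at 163, 161 and 189.7 TPM (1.13, SE 0.10, limma adjusted p = 1.3e-05). Every YAP-HA library of these genes was above every control library on gel. In S phase the largest differences were in RRM2, the inducible subunit of ribonucleotide reductase, at 265, 274 and 311 TPM against 158, 152 and 145 TPM (0.89, SE 0.07), and in CDC6, a loader of the helicase, at 57.4, 55.7 and 58.3 TPM against 35.0, 29.4 and 27.6 TPM (0.88, SE 0.09).

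Members that were not called between the substrates were called here. CDK1 was at 148, 135 and 148 TPM with YAP-HA (0.76, SE 0.08, limma adjusted p = 5.9e-05), CCNB1 at 341, 351 and 349 TPM (0.54, SE 0.05, limma adjusted p = 1.06e-05) and E2F1 had a mean of 36.5 TPM (0.58, SE 0.08, limma adjusted p = 0.00024). FOXM1 had a mean of 118 TPM (0.86, SE 0.07). All 6 helicase subunits were higher, by 0.57 for MCM3 to 0.77 for MCM4, and PCNA by 0.25. CCNE2 was called as well, at 14.6, 18.8 and 19.3 TPM against 13.7, 10.9 and 10.65 TPM (0.54, SE 0.13, limma adjusted p = 0.00541). CCNE1 was the exception, at 9.21, 9.24 and 10.25 TPM with YAP-HA against 10.01, 11.01 and 10.39 TPM, and the groups overlapped (−0.12, SE 0.11, limma adjusted p = 0.389, interval −0.36 to 0.12).

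Outside the set the counts differed between lists, while 24.5% of all genes tested were called higher and 23.9% lower. Of 37 other replication genes 31 were higher and 0 lower, among them the initiation factor MCM10 (1.01) and TK1 (1.00). Of 58 other mitosis genes 56 were higher and 0 lower, led by ANLN (1.26), DEPDC1 (1.22) and KIF14 (1.17). Of 28 regulators 15 were higher and 2 lower, led by SKP2, the ligase subunit that marks p27 for degradation (1.29), the S phase kinase CDK2 (1.10) and RBL1 (0.98). CDKN1A was lower, from 303 to 202 TPM (−0.59, SE 0.05, limma adjusted p = 1.74e-05), CDKN1B higher (0.40), and CDKN2B (−0.23), CDKN2C (−0.02) and CDKN2D (0.00) were not called.

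**Figure D3:**
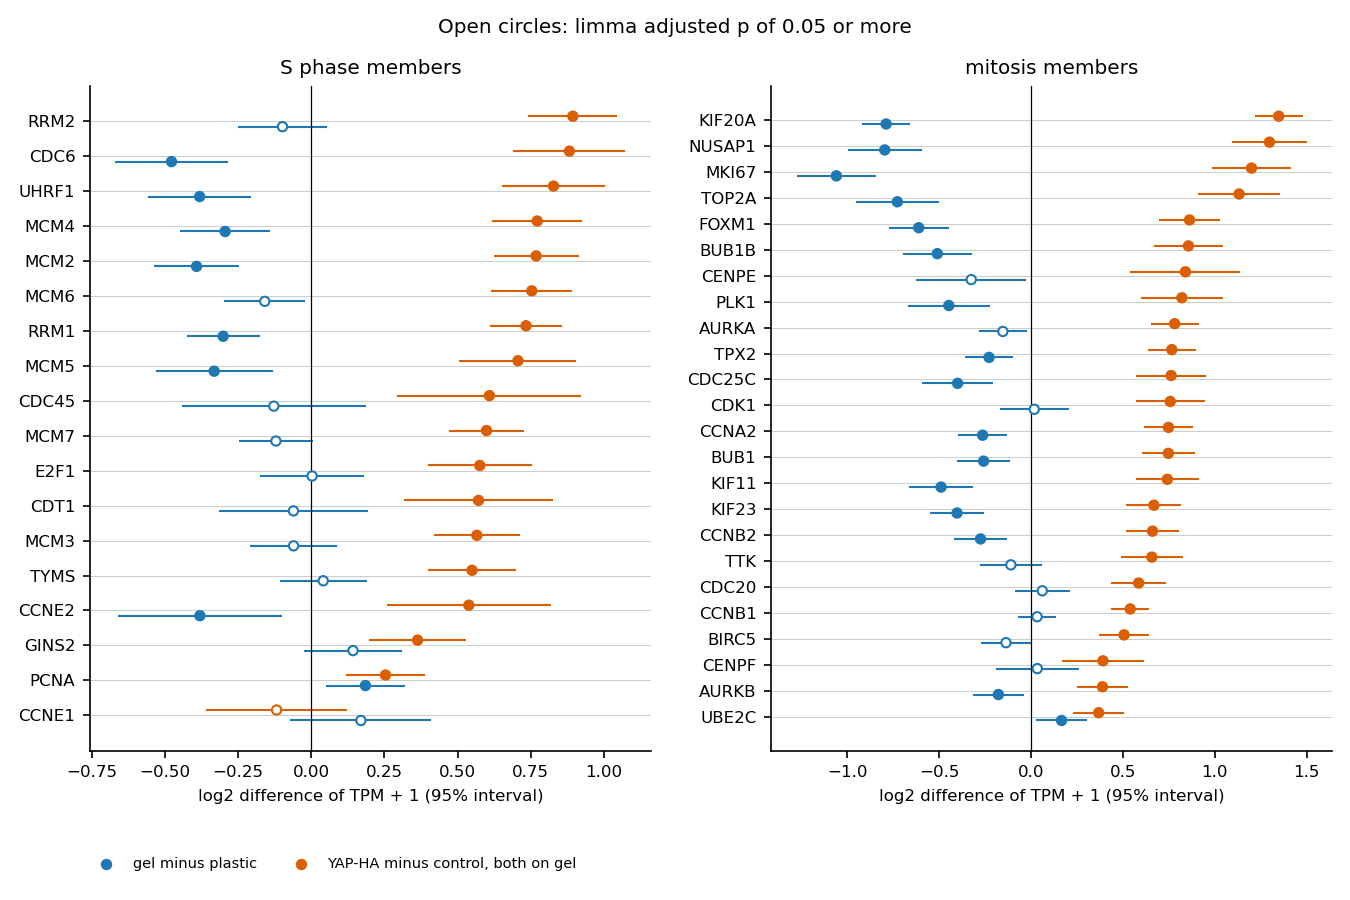
Difference in log2(TPM + 1) with its 95% interval for each member, for control cells on gel minus plastic (blue) and YAP-HA minus control cells on gel (orange), where open circles have a limma adjusted p of 0.05 or more. The orange points are filled for 41 of 42 members, and the blue points spread from −1.06 for MKI67 to 0.18 for PCNA.

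YAP-HA cells on gel were also set against control cells on plastic, a pair that differs in both substrate and YAP. Of the 42 members 39 were called higher and 0 lower, 16 S phase and 23 mitosis members, while 14.2% of all genes tested were called higher and 20.2% lower. The median difference was 0.48 for S phase and 0.46 for mitosis members, beside −0.05 over all genes. MKI67 was not called, with a mean of 98.2 TPM against 88.7 TPM and overlapping libraries (0.14, SE 0.10, limma adjusted p = 0.288), nor were CCNE2 (0.16, SE 0.13, limma adjusted p = 0.363) and CCNE1 (0.05, SE 0.11, limma adjusted p = 0.751).

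RRM2 had the largest difference of this comparison (0.80, SE 0.07), followed by CDK1, from a mean of 83.7 to 143.8 TPM (0.78, SE 0.08, limma adjusted p = 9.16e-05), and CDC20, from 136, 120.2 and 127 TPM to 202, 211 and 189 TPM (0.65, SE 0.07). AURKA, the kinase of the spindle poles, was at 76.8, 85.1 and 80.3 TPM on plastic and 119, 129 and 128 TPM with YAP-HA (0.63, SE 0.06). MCM6 was at 32.3, 32.6 and 35.1 TPM and 49.8, 51.1 and 51.5 TPM (0.59, SE 0.06), and TYMS, which makes thymidylate, at 194, 179 and 206 TPM and 302, 297 and 274 TPM (0.59, SE 0.07). In none of these members did the groups overlap. CCNB1 (0.57), E2F1 (0.58), TOP2A (0.41), FOXM1 (0.25), PCNA (0.44) and the other helicase subunits (0.37 to 0.51) were called higher too.

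Outside the set 31 of 37 other replication genes were higher and 0 lower, led by HELLS (0.72), MCM10 (0.70) and RPA2 (0.66). Among all genes tested 14.2% were called higher and 20.2% lower. Of 58 other mitosis genes 49 were higher and 0 lower, led by SPC25 (0.81), CKS2 (0.79) and HMMR (0.69). Of 28 regulators 11 were higher and 3 lower, with the largest differences in SKP2 (0.68), CDK6 (−0.59) and CDK2 (0.54). CDKN2B was lower, from 29.5 to 13.8 TPM (−1.04, SE 0.17, limma adjusted p = 0.00097), while CDKN1A (−0.12), CDKN1B (0.12), CDKN2C (−0.07) and CDKN2D (0.13) were not called.

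In the eye cups of old mice the members were low. The median over members of the mean TPM was 5.40 for S phase and 2.07 for mitosis genes, and 21 of 24 mitosis members had a mean under 5 TPM. The mitosis member with the highest level was Cdk1, at 13.8 and 17.96 TPM in control mice and 15.4 and 13.0 TPM in TRULI mice, while Mki67 was at 3.44 and 3.48 TPM and at 2.25 and 2.81 TPM. Pcna was the highest member, at 93.3 and 111 TPM and at 112 and 83.1 TPM. Cdc6, Ccnb2, Cdc25c, Bub1 and Ttk did not pass the filter of 1 TPM in 2 of 4 libraries, with no value above 2.57 TPM, which left 37 members in the test.

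Of 37 members 0 were called between TRULI and control mice, where 0.0198% of the 15132 genes tested were called higher and 0.033% lower by limma. At an unadjusted p under 0.05 there were 4 members and 1810 of all genes. Those 4 were Rrm2, at 1.72 and 1.2 TPM in control and 3.68 and 3.72 TPM in TRULI mice (0.94, SE 0.32, limma adjusted p = 0.365), Cenpf (1.10, SE 0.34, limma adjusted p = 0.335), Mcm2 (0.55, SE 0.22, limma adjusted p = 0.41), and Ube2c, at 4.71 and 3.14 TPM against 1.58 TPM and a value listed at 0 (−1.60, SE 0.54, limma adjusted p = 0.367). The signs of the 4, which that unadjusted p picked, were mixed.

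The other large differences were also uncertain. Tyms was at 6.34 and 2.04 TPM against 9.3 and 9.43 TPM (1.13, SE 0.45), Cdt1 had −0.85 (SE 0.43) and Ccne2 0.74 (SE 0.76). Mki67 differed by −0.34 (interval −1.09 to 0.40), Top2a by −0.01 (−0.78 to 0.76), Cdk1 by −0.14 (−0.70 to 0.42) and Ccnb1 by 0.04 (−0.99 to 1.07). Each of these intervals held 0. E2f1 (0.39), Foxm1 (0.19), Ccne1 (0.07), Pcna (−0.08) and Mcm3 to Mcm7 (−0.50 to 0.20) were likewise not called.

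**Figure D4:**
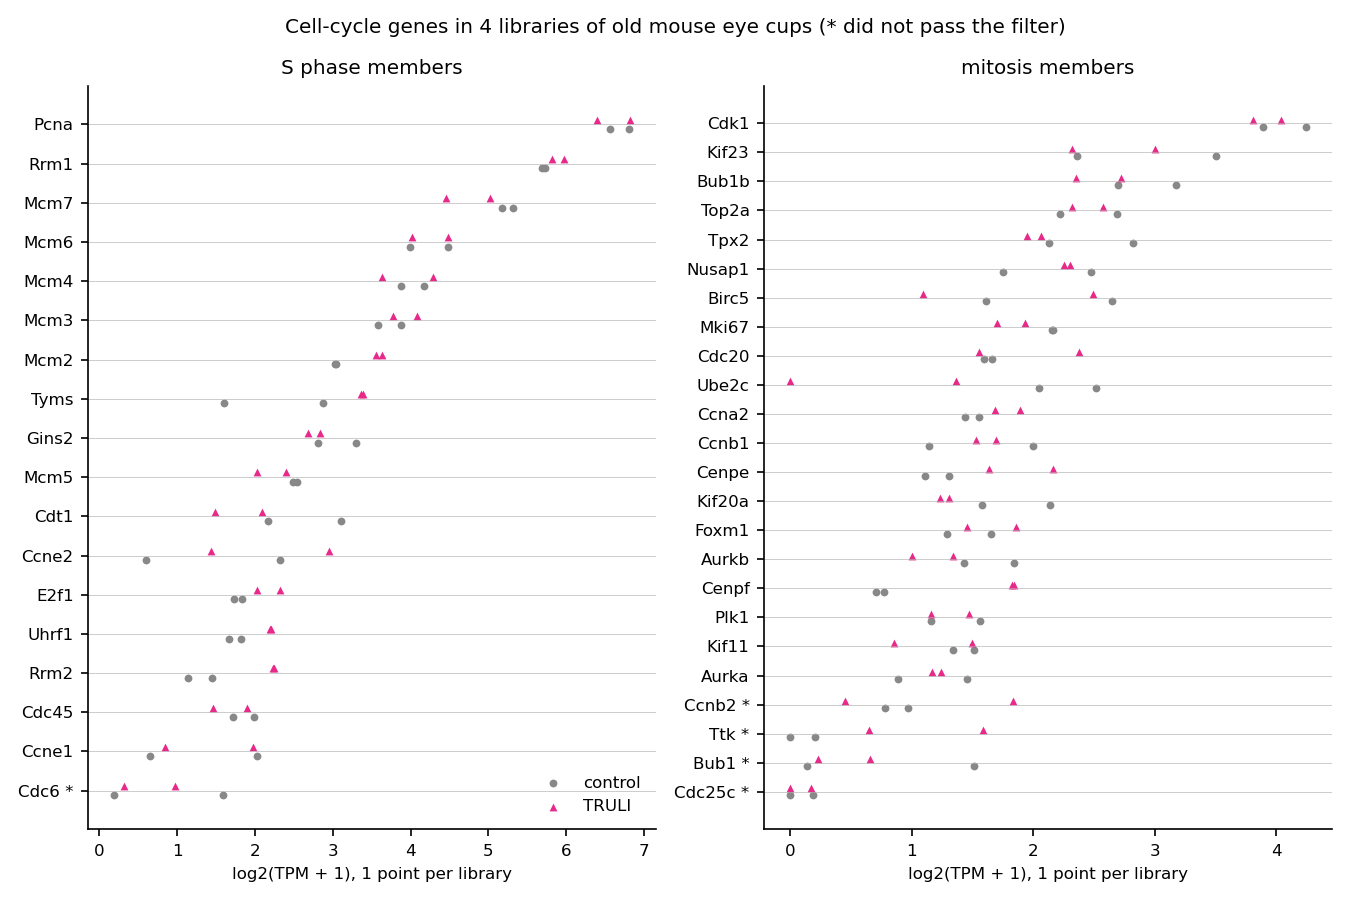
log2(TPM + 1) of the 42 members in the 4 eye cup libraries, 1 point per library, for control (circles) and TRULI (triangles) mice, with members ordered by mean level and those that did not pass the filter marked by an asterisk. Cdk1 lies above every other mitosis member on average, and no member was called between the groups.

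Of 36 other replication, 39 other mitosis and 29 regulator genes tested, 0 were called by limma, with 2, 4 and 1 at an unadjusted p under 0.05. The largest differences were in Pole2 (1.63), Asf1b (−1.20) and Pole (−0.72), in Ect2 (1.55), Ckap2 (1.18) and Ncapg2 (1.18), and in Fbxo5 (−0.78), Cdk6 (0.69) and Chek1 (−0.69). None of the 6 CDK inhibitors was called, with Cdkn2b at 0.87, Cdkn1c at −0.56, Cdkn1a at −0.45, Cdkn2c at −0.43, Cdkn1b at 0.22 and Cdkn2d at −0.13. Markers of several other cells differed between the groups, but not those of every cell type. The share of all genes that lay wholly above or wholly below control in TRULI mice was not counted. Of 6 fibroblast markers 3 were higher and 1 lower in both TRULI libraries. Of 6 endothelial markers 1 was higher and 2 lower, of 6 dendritic markers 1 and 2, and of 6 Schwann markers 0 and 0. Of 6 T cell markers 5 were lower in both TRULI libraries (summed 51.8 and 71.2 TPM in control, 17.5 and 15.8 TPM in TRULI mice), of 5 erythroid markers all 5 (3071 and 2269 against 889.6 and 828 TPM), of 5 neutrophil markers 3 and of 5 mast cell markers 4. Of 7 macrophage markers 4 were lower in both TRULI libraries, among them C1qa (390.6 and 371 TPM in control, 146 and 203 TPM in TRULI mice), and 1 was higher, while their summed level was 7428 and 7362 TPM in control and 9273 and 8315 TPM in TRULI mice. All 6 pericyte markers (311 and 369 against 551 and 846 TPM) and 5 of 6 melanocyte markers were higher in both TRULI libraries, no marker of these lists was at 0 in all libraries, and the part of these cells in the member values was not tested.

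The single-cell libraries show which cells of such dissociations carry the mitosis genes. After filters 15667 cells remained at 3 months (median 4586 UMIs, the counted RNA molecules) and 15198 at 24 months (median 3699 UMIs). The matrices share 381 cell barcodes, 300 of them after filters. Cells were clustered with 43 cell-cycle genes, members and listed genes, taken out of the variable features, and clusters were named from markers. RPE-like cells numbered 7429, in clusters 2, 3, 11 and 12, and the 10 leading genes of clusters 3, 11 and 12 held none of the RPE markers, although 8 of 9 were detected in each. With 1 library at each age there is no test between ages, and intervals cover counting error only.

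Most cells had no mitosis member. Of 30865 cells 27338 had 0, 2995 had 1, 380 had 2, 58 had 3, 14 had 4 and 80 had 5 or more. Numbers fell without a gap at this limit, as 7 cells had 5 members, 5 had 6 and 3 had 7. The 80 cells had a median of 14 mitosis members, 8.5 S phase members and 25 other mitosis genes that had not been used to choose them. Among the members that were used to choose the 80 cells, Mki67 was found in 70 of them, Top2a in 67 and Cdk1 in 57. Other mitosis genes summed to 5437 CPM (a level relative to all UMIs of the same cells) in these cells and to 329 CPM in cells with fewer than 3 members. Scrublet marked 6 of the 80 as doublets, and 4 have a barcode found in both libraries.

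The 80 cells were mostly immune cells. Dendritic-like cells held 22, macrophage-like 21 and T cell-like 16, so 59 of 80 (73.8%, exact binomial 95% interval 62.7 to 83.0%) lay in classes that made up 10.0% of all cells. Fibroblast-like cells held 7, keratin epithelium-like 6, melanocyte-like 5, RPE-like 2 and endothelial-like 1. Pericyte-like, Schwann-like and B cell-like cells held 0. The 80 were 39 at 3 months and 41 at 24 months, and T cell-like cells held 3 and 13 of them, in a class that had 106 cells at 3 months and 1369 at 24 months. No cluster took the name of natural killer (NK) cells here. With cell-cycle genes among the variable features, 108 cells formed a cluster named NK cell-like. Whether the T cell-like class holds NK cells was not tested.

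The share of cells with 3 or more mitosis members was 0.466% (73 of 15667 cells) at 3 months and 0.520% (79 of 15198) at 24 months over all cells. Dendritic-like cells, antigen-presenting cells with Cd209a and Clec10a among their leading genes, were at 17.7% (14 of 79) and 11.02% (13 of 118), and at 10.1% (8 of 79) and 5.93% (7 of 118) after each cell was thinned to 1000 UMIs. Macrophage-like cells were at 2.55% (13 of 510) and 2.07% (19 of 918), and their smaller cluster, led by Chil3 and Treml4, held 0 of the cells with 5 or more. The share in macrophage-like cells moved with the processing, at 3 months to 1.18% with cell-cycle genes among the variable features and to 5.32% with cells holding hemoglobin kept, and at 24 months to 0.759% after thinning to 1000 UMIs and to 3.23% with those cells kept. T cell-like cells were at 2.83% (3 of 106) and 1.17% (16 of 1369), and fibroblast-like cells at 0.0808% (7 of 8665) and 0.0366% (2 of 5470). After the same thinning they were at 2.91% and 0.694% in T cell-like and at 0.0465% and 0.0370% in fibroblast-like cells. Keratin epithelium-like cells had the highest share, but in only 21 cells, and their highest members were Mki67 (186 CPM), Top2a (117.5 CPM), Rrm2 (108 CPM), Cdc20 (97.9 CPM), Cenpf (93.0 CPM) and, at the same level, Rrm1 and Tpx2 (88.1 CPM).

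**Figure D5:**
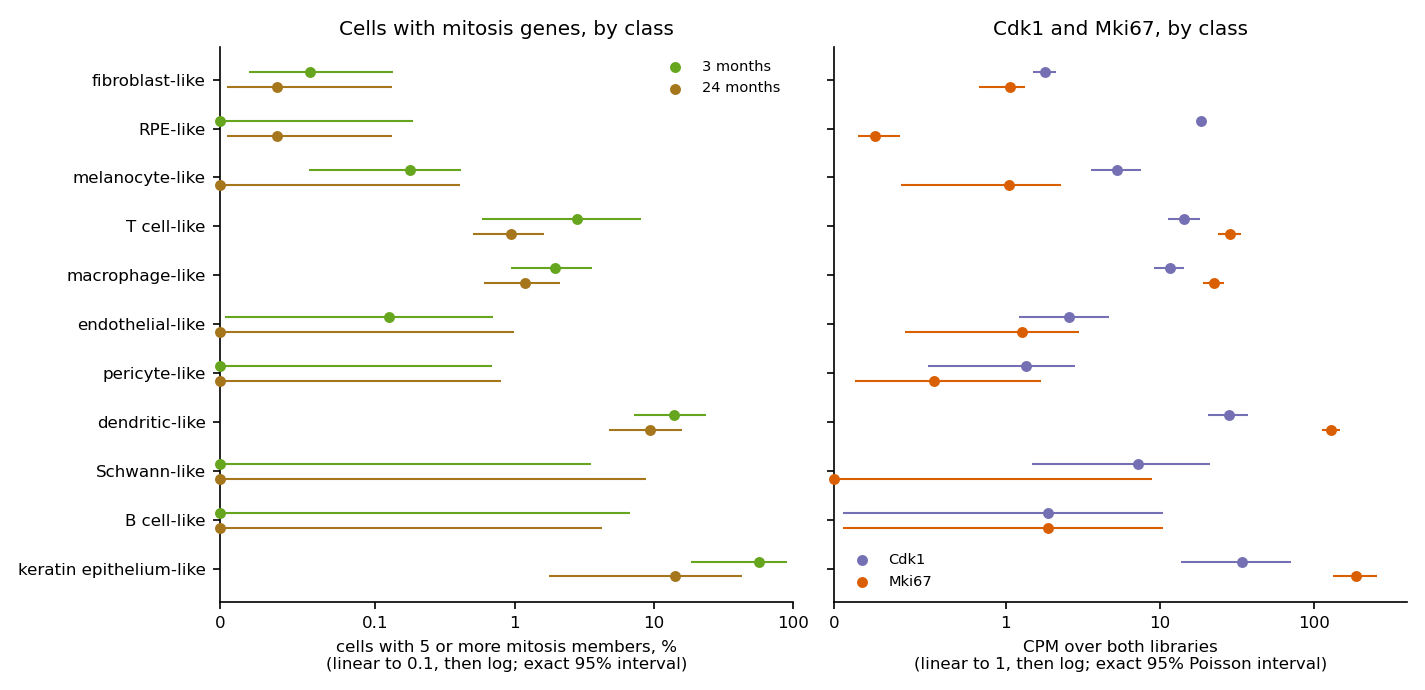
Left, percent of cells of each class with 5 or more mitosis members at 3 and 24 months, with exact binomial 95% intervals. Right, CPM of Cdk1 and Mki67 over both libraries, with exact Poisson 95% intervals, where RPE-like cells have 18.4 CPM of Cdk1 and 0.24 CPM of Mki67.

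RPE-like cells were at 0.960% (19 of 1980) at 3 months and 0.496% (27 of 5449) at 24 months by the same count of 3 members. These shares went with depth. RPE-like cells with 3 or 4 members had a median of 24142 UMIs, and their other mitosis genes summed to 329 CPM (exact Poisson 95% interval 296 to 364), against 280.1 CPM (276 to 284) in RPE-like cells with fewer than 3 and 5437 CPM in the 80 cells. Mki67 was found in 4 of these 44 cells and Cdk1 in 32, and both are among the members that chose the cells. After thinning each cell to 1000 UMIs, 0 of 1721 RPE-like cells at 3 months and 1 of 4265 at 24 months had 3 members, with 259 and 1184 shallower cells left out. The 2 RPE-like cells with 5 or more were both from cluster 11 at 24 months, both were marked by Scrublet, and they carried 30 and 17 UMIs of T cell markers.

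Cdk1 was found mostly in RPE-like cells. It had 1311 of its 1696 UMIs in RPE-like cells, which held 41.3% of all UMIs. Its level there was 18.4 CPM (exact Poisson 95% interval 17.4 to 19.4), and 14.3% of RPE-like cells had a UMI of it, at a median depth of 5301 UMIs. In fibroblast-like cells, at a median of 4763 UMIs, it was at 1.79 CPM and in 0.679% of cells. These shares of cells are not matched in depth. Among RPE-like cells Cdk1 was found in 27.2% of cluster 3 (median 15997 UMIs) and in 3.61% of cluster 2 (median 1097 UMIs). Cdk1 was at 11.6 CPM in macrophage-like, 14.4 CPM in T cell-like, 27.9 CPM in dendritic-like and 34.3 CPM in keratin epithelium-like cells. The level in RPE-like cells was 20.5 CPM at 3 months and 17.1 CPM at 24 months, and 20.9, 19.5, 12.8 and 12.6 CPM in clusters 2, 3, 11 and 12.

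In RPE-like cells Cdk1 was seldom found with Mki67 or Top2a. Of 1063 RPE-like cells with Cdk1, 5 (0.470%, exact binomial 95% interval 0.153 to 1.09%) also had Mki67 or Top2a. The same share was 82.6% in dendritic-like (19 of 23), 37.3% in macrophage-like (19 of 51), 31.7% in T cell-like (13 of 41) and 9.38% in fibroblast-like cells (9 of 96). Mki67 was at 0.24 CPM in RPE-like cells, 1.07 CPM in fibroblast-like, 22.3 CPM in macrophage-like, 28.4 CPM in T cell-like and 129 CPM in dendritic-like cells, and it had 0 UMIs in the 1980 RPE-like cells of 3 months, which allows up to 0.152% of cells with a UMI. Ccnb1, a mitotic cyclin that binds Cdk1, was at 0.168 CPM in RPE-like cells, but it was low throughout. It was at 0.469 CPM over all cells and was found in 31 of the 80 cells with 5 or more mitosis members. Ccnb2 was at 0.281 CPM in RPE-like cells and 1.36 CPM over all cells, and Ccna2 at 0.491 and 1.74 CPM. Bub1b was distributed much as Cdk1 was, with 483 of its 748 UMIs in RPE-like cells, at 6.78 CPM against 1.85 CPM in fibroblast-like cells. It was at 3.70 CPM in T cell-like, 5.99 CPM in macrophage-like, 16.0 CPM in dendritic-like and 19.6 CPM in keratin epithelium-like cells.

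The members differed in how much of their RNA lay in the 80 cells, which mitosis members chose. Of the UMIs of Bub1 91.9% were in those cells, of Birc5 85.0%, of Cenpf 83.1%, of Ube2c 80.6%, of Top2a 78.5% and of Mki67 72.6%. The share was 69.1% for Ccnb1, 15.1% for Foxm1 and 10.1% for Cdk1. S phase members, which did not choose the cells, were mostly outside them, with 1.94% for Mcm4, 2.40% for Pcna, 2.84% for Mcm6, 3.71% for E2f1, 6.36% for Mcm2, 7.51% for Mcm3, 7.91% for Mcm7, 14.6% for Mcm5, 16.1% for Cdc45, 6.00% for Ccne2 and 8.23% for Ccne1. The highest shares among S phase members were 59.6% for Rrm2 and 35.4% for Uhrf1. Pcna was found in every class, at 35.8 CPM in RPE-like and 58.4 CPM in fibroblast-like cells, and E2f1 was at 7.90 CPM in RPE-like and 4.46 CPM in fibroblast-like cells.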

How the data were processed

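The members and gene lists were chosen with earlier results of these data known. The authors deposited bulk RNA as TPM, made with STAR (2.7.3a and 2.7.10b are listed) and RSEM on GRCh38 and GRCm39, and these values carry no read depth. The paper describes the single-cell work only. Values were tested as log2(TPM + 1) with limma 3.58.1 (R 4.3.3, trend on), with a minimum of 1 TPM in 3 of 9 or 2 of 4 libraries, and an adjusted p under 0.05 was a call. Single-cell files were deposited by the authors as UMI counts from Cell Ranger 6.0.1 on mm10. Barcodes with fewer than 200 genes, over 10% mitochondrial UMIs or any hemoglobin UMI were dropped. The rest were clustered with Seurat 5.3.0 (25 principal components, resolution 0.4) on 1957 of 2000 variable features, since 43 cell-cycle genes were taken out. A cluster took the name of its best marker list at a score of 0.5 or more with 3 or more markers detected, limits set with the clusters in view. Doublets were scored with Scrublet in scanpy 1.11.5 and kept. Its automatic threshold marked 0 cells at 3 months, so that of 24 months served for both. Levels are summed UMIs of a class as CPM.

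The text names MKI67, TOP2A, CDK1, CCNB1, CCNE1, CCNE2, E2F1, FOXM1, PCNA and MCM2 to MCM7, the 6 largest differences in each contrast, members called against their group, members that did not pass the filter, the 3 largest of each other list, all CDK inhibitors and the 6 highest members of the class with the highest share. Other members were named after their values were seen. A gene that this rule names is not reported here. The code was tested on simulated data. Promoters are RefSeq windows of GRCh38.p14.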

Additional observations from a re-analysis of the deposited data

How the results depend on the processing

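In bulk RNA 144 of 158 alternative values stayed near the reported value and 14 moved. Most of the 158 are counts of called members, which have no direction to reverse, and no mean difference changed sign. No called member was called in the opposite direction in any run. Signs of some members did change, 3 on gel against plastic without plastic replicate 1 and 10 of 37 in mice without control replicate 2. The 41 members called higher with YAP-HA on gel remained called under every alternative run, and 35 to 37 of the 39 against plastic when a library was left out, with CDC45, KIF11, PLK1, FOXM1, AURKB and CENPE lost in some. On gel against plastic, leaving out a library gave 20 to 25 members lower and 0 to 2 higher, with CCNE2 and AURKB among the lower members lost in some. The 2 members higher there became 0 with no filter on low values and 0 with only the 2 groups compared, and the cause was not tested. In ARPE-19 cells, deviations of libraries with the same replicate number correlated at −0.125 to 0.0944, and those of other pairs at −0.155 to 0.163. The replicate block left 1 member higher on gel and 39 and 41 higher with YAP-HA. In mice the values were 0.0558 and −0.0558. They cannot decide pairing, since deviations of 2 libraries in a group mirror each other. Median-of-ratios scaling, which shifts all genes, gave mean differences of −0.087 (S phase) and −0.27 (mitosis) for gel minus plastic in place of −0.15 and −0.33, 0.50 and 0.49 for YAP-HA minus plastic in place of 0.46 and 0.44, and −0.081 for mitosis members with TRULI in place of −0.05, where a pseudocount of 0.1 gave −0.035. Without each mouse library the S phase mean difference ran from 0.018 to 0.22.

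Shares of cells with mitosis members depended on the count asked for and on depth. At 3 and 24 months, over all cells they were 1.60% and 1.85% with 2 or more members, 0.249% and 0.270% with 5 or more, 0.209% and 0.206% after thinning to 1000 UMIs, and 0.254% and 0.368% after thinning to 2000. In RPE-like cells they were 7.12% and 3.32% with 2 or more, 0% and 0.0367% with 5 or more, 0% and 0.0234% after thinning to 1000, and 0% and 0.0310% after thinning to 2000. In macrophage-like cells of 3 months the share was 1.18% with members among the variable features and 5.32% with cells holding hemoglobin kept. At 24 months it was 3.59% with 2 or more, 1.20% with 5 or more, 0.759% after thinning to 1000 and 3.23% with those cells kept.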

Other observations

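When the cell-cycle genes were allowed among the variable features, 70 of the 80 cells with 5 or more mitosis members fell into a single cluster of 269 cells that took the name dendritic-like, with Mki67, Top2a, Pclaf, Birc5 and Ube2c among its leading genes. The class of a dividing cell, as given in the report, was thus read without those genes. All 5 melanocyte-like cells with 5 or more were from the library of 3 months, which held 2829 of the 3736 melanocyte-like cells.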
